A study of Homo sapiens with 16 samples.

Results

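Intron 17 of *EIF4G2* is a short intron between exons 17 and 18 of the gene for eukaryotic translation initiation factor 4 gamma 2, a scaffold protein that takes part in cap-independent translation. It is 1 of the 21 introns of the transcript, and its status was described in all 16 libraries of the series. Reads were used when they covered exactly the introns that a construct is meant to hold and when the status of intron 17 was determined. For non-transfected cells (NT) and for the long, long_alt, Δint19+20 and mut 5′SS minigenes these were introns 15 to 20, and for short_1 and short_1_alt they were introns 15 to 18. For the 2 minigenes that carry an added 72 nt from the start of intron 19, they were introns 15 to 18 and the partial intron 19.

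The cells were HEK293T, an established line from human embryonic kidney that is easy to transfect. Minigenes, which are plasmid copies of part of a gene expressed from a CMV promoter, were transfected, and cells were collected the next day, while NT cells gave endogenous *EIF4G2* transcripts. The long minigene has the introns up to intron 20, and short_1 ends in exon 19 and lacks introns 19 and 20. In long_alt and short_1_alt, the same architectures carry an alternative allele in the 3′ splice site (3′SS) of intron 17. The count tables hold no bases, so the allele could not be checked in them. RT-PCR amplicons of NT, long, long_alt, short_1 and short_1_alt were sequenced from 2 replicates each (10 libraries). Direct RNA sequencing (DRS) gave 1 library each of long, short_1, Δint19+20 (introns 19 and 20 deleted), mut 5′SS (5′ splice site of intron 19 mutated), short + 72 nt + mut 5′SS and short + 72 nt (6 libraries). All minigenes were overexpressed from plasmids in a single cell line, and NT is the only RT-PCR group that reads the chromosomal gene. DRS was run on total RNA, where the paper kept only reads over all expected introns, to exclude endogenous *EIF4G2* transcripts. Endogenous DRS reads that cover exactly these introns cannot be told apart in the counts.

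An intron is removed after the U1 snRNP pairs with its 5′ splice site (5′SS) and after U2AF and the U2 snRNP bind the polypyrimidine tract, the terminal AG and the branch point near its 3′SS. In exon definition, the factors at the 3′SS of one intron and at the 5′SS of the next are paired across the exon between them, so that neighbouring introns can be recognised together. Introns of a transcript are often removed in a preferred order that differs from their position. Partly spliced reads can record that order: the intron still present is the one removed later, unless it stays in the RNA.

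Intron 17 lies on the minus strand at chr11:10800349-10800431 of GRCh38. It is 83 nt long with a GC content of 33.7%, and is flanked by exon 17 (216 nt) and exon 18 (259 nt). It has the same length as intron 16 (83 nt), while intron 18 is the longest of introns 15 to 20 (333 nt). The whole reference intron is shown because every comparison concerns its removal. Capitals mark the first 6 bases, which are part of the 5′SS, and the terminal AG.
intron 17: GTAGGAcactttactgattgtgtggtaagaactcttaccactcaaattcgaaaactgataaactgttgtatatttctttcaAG

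The splice sites of intron 17 are shown beside those of introns 16 and 18, because the order of their removal is compared below. In the 5′SS, capitals mark the first 6 intron bases after 6 exon bases.
intron 16 5′SS: ctaactGTAAGT
intron 17 5′SS: atgcagGTAGGA
intron 18 5′SS: tcccagGTAAGA

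In the 3′SS, capitals mark the AG that ends the intron, with 23 intron bases before it and 3 exon bases after it.
intron 16 3′SS: ttaaagatacttgtgttcttcacAGgaa
intron 17 3′SS: taaactgttgtatatttctttcaAGgct
intron 18 3′SS: gatgcaggtggctttgtctcttcAGaaa

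Of the 20 bases before the AG, 14 are pyrimidines in intron 17, against 12 in intron 16 and 13 in intron 18. Intron 20 has the most among introns 15 to 20, with 19 of 20. All are reference sequences, and the cloned sequences were not analysed here.

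The RT-PCR libraries gave 22706 to 46011 reads and the DRS libraries 186 to 1545 reads. Intron 17 was undetermined in 0% to 0.5% of the reads that covered the expected introns. The reads carry no molecular identifiers, so the 95% Wilson intervals and the limits for shares of 0 (3 counts of the total) cover counting error only. In NT, endogenous intron 17 was excised in 98.1% and 98.4% of reads (replicates 1 and 2). It was retained in 1.55% and 1.40% of reads, which gives 1.47% ± 0.103 (SD, n = 2). Thus nearly all endogenous transcripts had lost intron 17, and the spread between the NT replicates was small.

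In the long minigene, intron 17 was excised in 92.3% and 94.3% of reads and retained in 0.324% and 1.53%. Mean retention was 0.928% ± 0.855 (SD, n = 2), and of the NT values replicate 2 lay within the range of the long replicates and replicate 1 just above it. The difference of -0.544 percentage points between long and NT was smaller than the spread between replicates (two-sided exact permutation p = 0.667, n = 2 against 2, where the smallest possible p is 0.333). Without long replicate 1 the difference was 0.0604 points. Per the paper, NT was amplified with a forward primer in exon 15 and the minigenes with a minigene-specific one. Transcript source and primer pair therefore cannot be told apart in comparisons with NT.

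In short_1, intron 17 was retained in 8.05% and 17.7% of reads, with a mean of 12.9% ± 6.80 (SD, n = 2). Excised reads made up 90.8% and 81.3%. In long_alt, retention was 2.70% and 6.0% (4.35% ± 2.34), and in short_1_alt it was 22.5% and 33.5% (28.0% ± 7.79). The order of the minigenes was long, long_alt, short_1 and short_1_alt, and no 2 neighbours in this order overlapped.

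**Figure D1:**
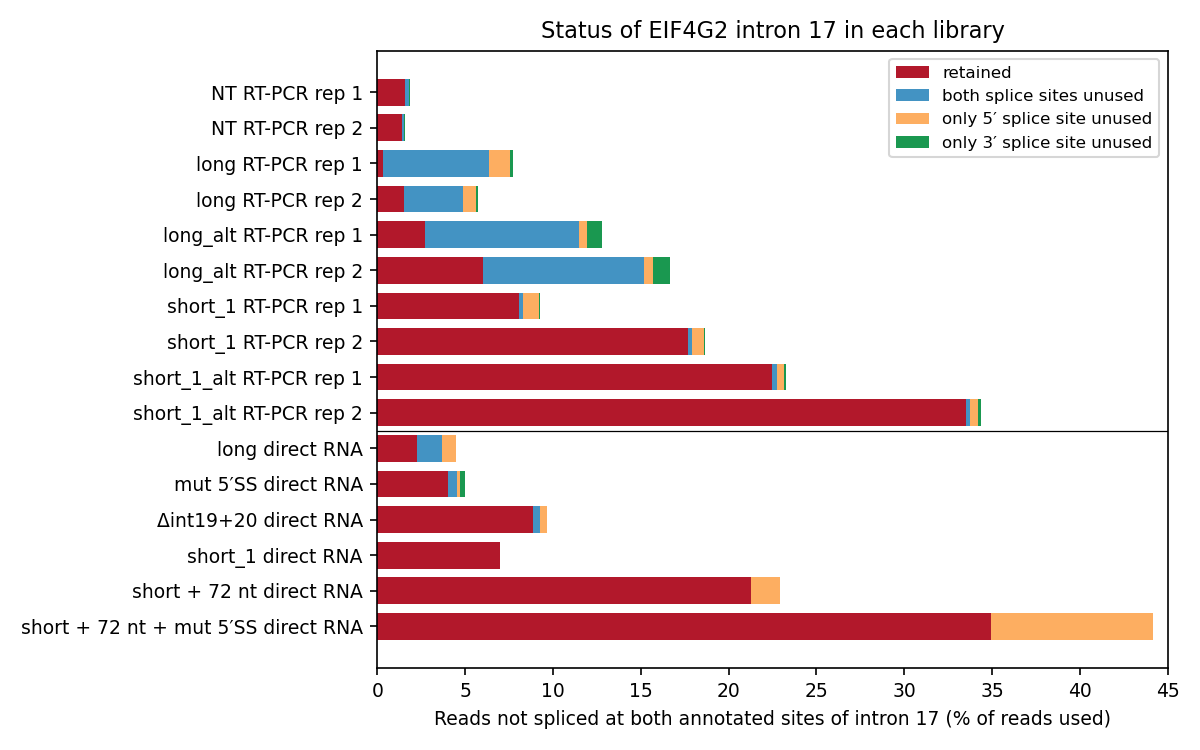
Each bar is 1 library, and its coloured parts give the percent of reads used in which *EIF4G2* intron 17 was retained or had 1 or both of its annotated splice sites unused; the rest of the reads had intron 17 excised. Retention is the largest part in the short minigenes, up to 33.5% in RT-PCR and 35.0% in direct RNA, while reads with both sites unused (3.33% to 9.17%) are found mainly in the long and long_alt RT-PCR libraries.

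The 4 libraries without introns 19 and 20 all had more intron 17 retention than the 4 libraries with them, by 17.8 points on average (20.4% against 2.64%; two-sided exact permutation p = 0.0286, the smallest possible with 4 against 4). This p became 0.0876 after Benjamini-Hochberg adjustment over 23 comparisons of RT-PCR libraries, and it was 0.0556 when labels were permuted within a replicate block. Each side holds 2 replicates of each of 2 minigenes that differ in allele. Here and below, architecture labels were permuted without regard to allele. The 4 libraries of a side are therefore not 4 replicates of a single construct. The 2 architectures were amplified with different reverse primers, in exon 21 and in exon 19, so architecture and amplicon cannot be told apart in RT-PCR. Introns 15, 16 and 18 moved the same way, with 5.66, 10.7 and 70.8 points more retention in the short libraries, none of which overlapped the long ones (exact permutation p = 0.0286 for each, n = 4 against 4, chosen after the values were seen).

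Replicate 2 had more intron 17 retention than replicate 1 in each of the 4 minigenes. Reads that retained every expected intron moved with it. They made up 0% and 0.133% for long, 0% and 0.149% for long_alt, 2.07% and 7.24% for short_1, and 2.80% and 7.42% for short_1_alt. The counts of 0 allow up to 0.0130% for long and 0.00652% for long_alt. With these reads left out, intron 17 retention was 0.324% and 1.40% for long, 2.70% and 5.86% for long_alt, 6.10% and 11.2% for short_1, and 20.3% and 28.2% for short_1_alt. Hence the difference between architectures was 13.9 points without them (two-sided exact permutation p = 0.0286, n = 4 against 4).

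The alternative allele was compared with the reference allele within each architecture, to ask how a change in the 3′SS of intron 17 goes with its excision. In the long architecture, retention was 3.42 points higher with the alternative allele, and the differences among the 4 pairings of libraries ran from 1.16 to 5.68 points. In the short architecture, it was 15.1 points higher, with a range from 4.84 to 25.5 points. Averaged over both, the difference was 9.28 points, higher in 4 of 4 pairings in each architecture (two-sided exact permutation within architecture, n = 4 against 4, p = 0.0556, which is the smallest this design allows, and 0.0876 after adjustment). Leaving out 1 library at a time, it ran from 6.53 points without short_1_alt replicate 2 to 12.04 points without short_1_alt replicate 1. Taken alone, neither architecture could pass the threshold (exact permutation p = 0.333, n = 2 against 2, the smallest possible).

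The size of the allele difference depended on the scale. As a ratio of mean percentages, retention was 4.68-fold higher in long_alt than in long and 2.18-fold higher in short_1_alt than in short_1. As an odds ratio from the mean log odds of the libraries, with 0.5 added to each count, it was 5.89 in the long and 2.79 in the short architecture. Thus the difference was larger in the short architecture in points and larger in the long architecture as a ratio. Whether the 2 architectures differ in it was not tested.

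The neighbouring introns served as comparators in the same reads. Intron 16, which has the same length, was retained in 0.212% and 1.20% of reads for long and in 0.309% and 1.80% for long_alt. In short_1 it was retained in 5.98% and 14.3%, and in short_1_alt in 8.34% and 17.7%. The alleles overlapped at intron 16 in both architectures, and the mean allele difference was 1.63 points (two-sided exact permutation p = 0.444, n = 4 against 4). It was 0.330 points at intron 15 (exact permutation p = 0.5) and 6.83 points at intron 18 (exact permutation p = 0.111).

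At intron 18, retention was 0.736% and 2.82% for long, 1.95% and 4.40% for long_alt, 63.2% and 71.0% for short_1, and 78.6% and 80.2% for short_1_alt. The alleles overlapped in the long architecture and did not in the short one, where the difference was 12.3 points. Since intron 17 and intron 16 are read in the same molecules, their retention was also subtracted within each library. Intron 17 retention exceeded that of intron 16 by 0.112 and 0.335 points for long, by 2.39 and 4.20 in long_alt, by 2.07 and 3.39 in short_1, and by 14.2 and 15.8 in short_1_alt. This excess was 7.65 points larger with the alternative than with the reference allele (two-sided exact permutation p = 0.0556, n = 4 against 4, the smallest possible), a quantity chosen after the values were seen. In NT it was 0.502 and 0.111 points.

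**Figure D2:**
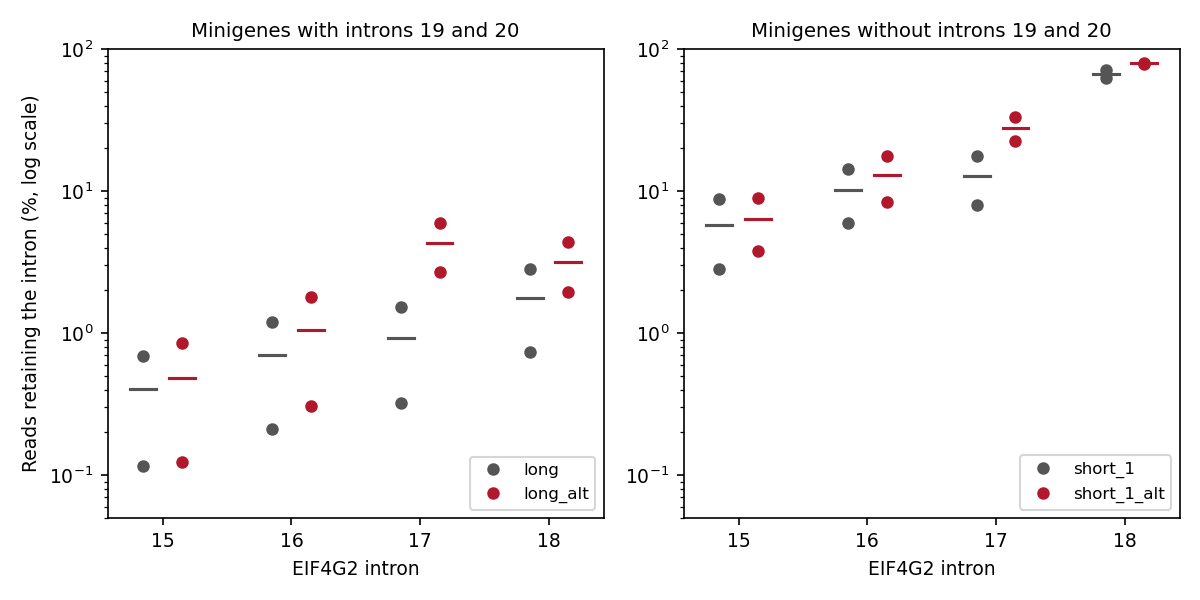
Percent of reads that retain introns 15, 16, 17 and 18 in RT-PCR libraries (log scale), with points for the 2 replicates and bars for their mean; grey is the reference and red the alternative allele. The alleles overlap at introns 15 and 16 and are apart at intron 17 in both architectures, with 0.324% and 1.53% for long against 2.70% and 6.0% for long_alt.

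A splice site of an intron is unused when the other end is joined elsewhere, either because an exon was skipped or because another site was chosen. Reads in which only the 3′SS of intron 17 was unused were rare with the reference allele: 0.173% and 0.107% for long, 0.0537% and 0.0644% for short_1, and 0.0536% and 0.0650% for NT. In long_alt they made up 0.872% and 0.919%, and in short_1_alt 0.117% and 0.185%. Hence they were more frequent with the alternative allele in every pairing within an architecture, with an odds ratio of 6.54 in the long and 2.47 in the short architecture. The mean difference was 0.424 points (two-sided exact permutation p = 0.0556, n = 4 against 4, the smallest possible).

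In long_alt, 2 kinds of these reads were the most frequent. In the first, introns 16 and 18 were excised at their annotated sites and intron 17 was joined to a 3′ site other than the annotated one. It had 12 and 14 reads for long, 232 and 191 reads for long_alt and 13 and 18 reads in NT. As a share of all reads this was 0.0518% and 0.0517% for long and 0.504% and 0.591% for long_alt. The position of the other site is not in the count tables. In the second kind, which was not among the 2 most frequent in long replicate 2, exon 18 was skipped as a single exon. The 5′SS of intron 17 was thus joined to the 3′SS of intron 18. This kind had 8 and 4 reads for long, 97 and 55 reads for long_alt (0.211% and 0.170%), and none in NT, where up to 0.0124% and 0.0108% could have been missed. In short_1, exon 18 was skipped as a single exon in 0 and 1 reads, and in short_1_alt in 9 and 1 reads.

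Reads with only the 5′SS of intron 17 unused went in the other direction. They made up 1.20% and 0.772% for long and 0.918% and 0.715% for short_1. In long_alt they made up 0.452% and 0.538%, and in short_1_alt 0.390% and 0.449%. All 4 libraries with the alternative allele lay below all 4 with the reference allele, and the odds ratios were 0.510 and 0.516 in the long and short architectures (mean difference -0.444 points, two-sided exact permutation p = 0.0556, n = 4 against 4, the smallest possible). In NT such reads were scarcer than in any minigene RT-PCR library, with 0.0330% and 0.0217%.

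Skipping of exon 17, in which the 5′SS of intron 16 is joined to the 3′SS of intron 17, gave most of these reads in the minigenes. It made up 1.01% and 0.658% for long, 0.820% and 0.595% for short_1, 0.343% and 0.443% for long_alt, and 0.286% and 0.379% for short_1_alt. This form uses the 3′SS of intron 17, and was less frequent in the alternative-allele libraries in all pairings within an architecture, a difference that was not tested.

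Both splice sites of intron 17 were unused in 6.02% and 3.33% of long reads and in 8.77% and 9.17% of long_alt reads. In short_1 and short_1_alt the share was 0.230% to 0.253%, and in NT it was 0.227% and 0.108%. Therefore in RT-PCR this class was found mainly in the long minigenes, and the difference between architectures was -6.58 points (two-sided exact permutation p = 0.0286, n = 4 against 4, chosen after the values were seen). The most frequent combination joined intron 16 to the end of intron 20, so that exons 17 to 20 were all absent. It had 886 of the 1395 such reads and 443 of the 902 in long, and 2447 of 4033 and 1837 of 2964 in long_alt. The next most frequent joined intron 16 to the end of intron 19, with 170 and 124 reads in long and 804 and 492 in long_alt. The amplicon of the short minigenes ends in exon 19, so neither combination can be seen in them. The direction of the -6.58 points was therefore largely fixed by the design. In DRS of long, without PCR, both sites were unused in 14 of 986 reads, 2 of them with the combination that lacks exons 17 to 20. The 2 assays were not compared by a test.

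Adding the classes, the 3′SS of intron 17 was unused in 2.58 points more reads of the alternative than of the reference allele (two-sided exact permutation p = 0.0556, n = 4 against 4, the smallest possible). For the 5′SS the mean difference was 1.71 points (exact permutation p = 0.333), since it was positive in the long and negative in the short architecture. Between the short and the long libraries, the differences were -7.00 points for the 3′SS and -6.71 points for the 5′SS (exact permutation p = 0.0286 for each, 0.0876 after adjustment over 23 comparisons, and 0.0556 within a replicate block). Most of these reads in the long libraries skipped exons up to intron 19 or 20, which the short amplicon cannot show, so the direction of these 2 differences was largely fixed by the design.

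For the order of removal of introns 17 and 18, transcripts that kept exactly 1 of them were counted. The kept intron may be removed later or may stay in the RNA, which these counts do not separate. In NT, the kept intron was intron 17 in 17.7% and 21.3% of these reads. In long it was intron 17 in 41 of 180 reads (22.8%) and 80 of 512 (15.6%). In long_alt it was intron 17 in 754 of 1197 reads (63.0%) and 932 of 1389 (67.1%). Thus intron 18 was the one more often left in NT and long, and intron 17 in long_alt, with 45.8 points between the allele means.

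In the short architecture, intron 17 was the kept one in 0.457% and 0.556% of these reads for short_1 and in 1.10% and 1.70% for short_1_alt. The reads it is taken over depend on intron 18 retention, which was 63.2% to 80.2% there against 0.736% to 4.40% in the long architecture. On the odds scale the allele difference was 7.91-fold in the long and 2.74-fold in the short architecture. The mean over both was 23.4 points (two-sided exact permutation p = 0.0556, n = 4 against 4, the smallest possible). Between architectures it was -41.2 points (exact permutation p = 0.0286, 0.0876 after adjustment over 23 comparisons, and 0.0556 within a replicate block).

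Introns 16 and 17, which are equal in length, also differ in which of them is kept. Among reads that kept exactly 1 of them, the kept one was intron 17 in 70.1% and 57.0% for NT, 67.5% and 65.2% for long, and 76.4% and 77.5% for short_1. With the alternative allele, it was intron 17 in 95.3% and 94.0% for long_alt and in 93.6% and 94.1% for short_1_alt. Hence intron 17 was more often the kept one of the pair in every RT-PCR library, and the 4 libraries with the alternative allele lay above the 4 with the reference allele by 22.6 points on average (two-sided exact permutation p = 0.0556, n = 4 against 4, the smallest possible). The architectures overlapped in this measure (4.90 points, exact permutation p = 0.629), and without long replicate 2 the sign turned to -0.185 points.

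**Figure D3:**
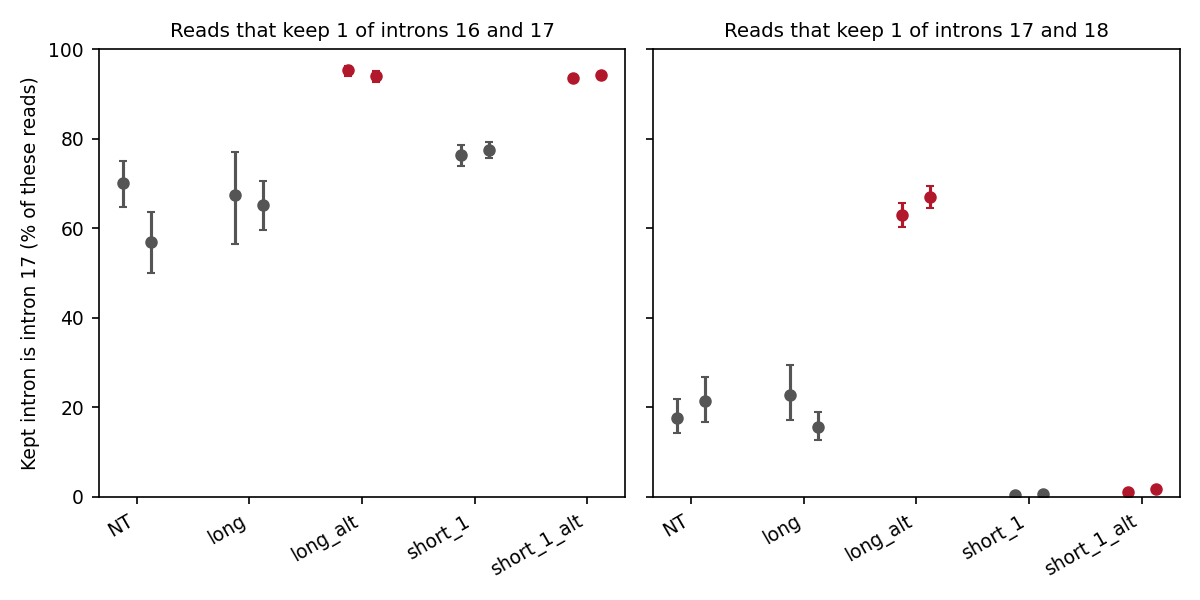
Percent of reads in which the kept intron is intron 17, among RT-PCR reads that keep exactly 1 of introns 16 and 17 (left) or of introns 17 and 18 (right); points are libraries, bars are 95% Wilson intervals, and red marks the alternative allele. On the left, alternative-allele libraries sit between 93.6% and 95.3%; on the right, long_alt (63.0% and 67.1%) stands apart from NT and long, and the short minigenes stay at 1.70% or below.

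Retention of intron 17 was then set against the status of its neighbours in the same read. When intron 18 was excised, intron 17 was retained in 0.291% and 0.192% of NT reads, 0.219% and 0.343% of long reads and 0.702% and 1.05% of short_1 reads. It was retained in 2.04% and 3.6% for long_alt and 3.02% and 4.22% for short_1_alt. Reads that had lost intron 18 thus still separated the alleles, with no overlap between them and an odds ratio of 10.1 in the long and 4.25 in the short architecture (mean difference 2.64 points, two-sided exact permutation p = 0.0556, n = 4 against 4, the smallest possible). The architectures overlapped among these reads (0.695 points, exact permutation p = 0.571), and the difference was 0.0391 points without short_1_alt replicate 2 and 1.38 points without long_alt replicate 2.

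When intron 18 was retained, intron 17 was retained in 49.2% and 63.4% for NT, 16.5% and 42.5% for long, and 12.3% and 24.6% for short_1. With the alternative allele the share was 50.1% and 67.4% for long_alt and 28.0% and 41.1% for short_1_alt, so that the alleles overlapped in neither architecture (mean difference 22.6 points, two-sided exact permutation p = 0.0556, n = 4 against 4, the smallest possible). In all 10 RT-PCR libraries intron 17 retention was higher when intron 18 was retained, by 37.9 points on average (two-sided exact permutation by sign changes over 10 libraries, p = 0.00195, and 0.0225 after adjustment over 23 comparisons).

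The status of intron 16 divided the reads further. With intron 16 retained, intron 17 was retained in 64.4% and 75.9% for NT, 46.9% and 69.1% for long, 57.7% and 82.4% for long_alt, 84.7% and 90.5% for short_1, and 87.4% and 94.1% for short_1_alt. With intron 16 excised, the shares were 0.882% and 0.418% for NT, 0.241% and 0.717% for long, 2.77% and 5.06% for long_alt, 3.13% and 5.44% for short_1, and 16.6% and 20.3% for short_1_alt. The difference between the classes was 69.8 points and had the same direction in 10 of 10 libraries (two-sided exact permutation by sign changes, p = 0.00195, adjusted 0.0225). Leaving out reads that retained every expected intron, it was 66.2 points, and the difference for intron 18 was 35.3 points. These 2 were the only comparisons of RT-PCR libraries that passed the adjustment over 23, and the only ones that could. The others had fewer possible assignments of labels, with a smallest exact permutation p of 0.0286, 0.0556 or 0.333. Hence passing the adjustment does not rank these 2 above the others.

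The alleles overlapped among reads that retained intron 16 (7.6 points, exact permutation p = 0.444, n = 4 against 4), and leaving out replicate 2 of long_alt gave 1.43 points, while leaving out its replicate 1 gave 13.8 points. Among reads that had excised it, the alternative allele was higher in all pairings within an architecture, by 8.81 points on average (exact permutation p = 0.0556, the smallest possible). In the reads that retained intron 16, the short libraries lay above the long ones by 25.1 points (exact permutation p = 0.0286, 0.0876 after adjustment, 0.0556 within a replicate block, and 0.0857 with a difference of 19.3 points when reads that retained every expected intron were left out). Reads with intron 16 retained were few in the long architecture: 49 and 324 in long and 142 and 581 in long_alt.

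Taking both neighbours together, intron 17 was least often retained when both were excised: 0.162% and 0.213% for long, 1.99% and 3.40% for long_alt, 0.294% and 0.456% for short_1, and 2.57% and 3.40% for short_1_alt. In this class all 4 alternative-allele libraries lay above all 4 reference-allele libraries, whatever the architecture. When only intron 18 was kept, intron 17 was retained in 11.6% and 23.4% for long, 47.3% and 54.8% for long_alt, 4.92% and 8.0% for short_1, and 20.9% and 25.9% for short_1_alt. When only intron 16 was kept, the share was 25.6% to 50% over the minigene libraries, and the alleles overlapped. When both were kept, it was 83.3% to 98.1% in minigenes and 79.6% and 90.8% for NT.

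**Figure D4:**
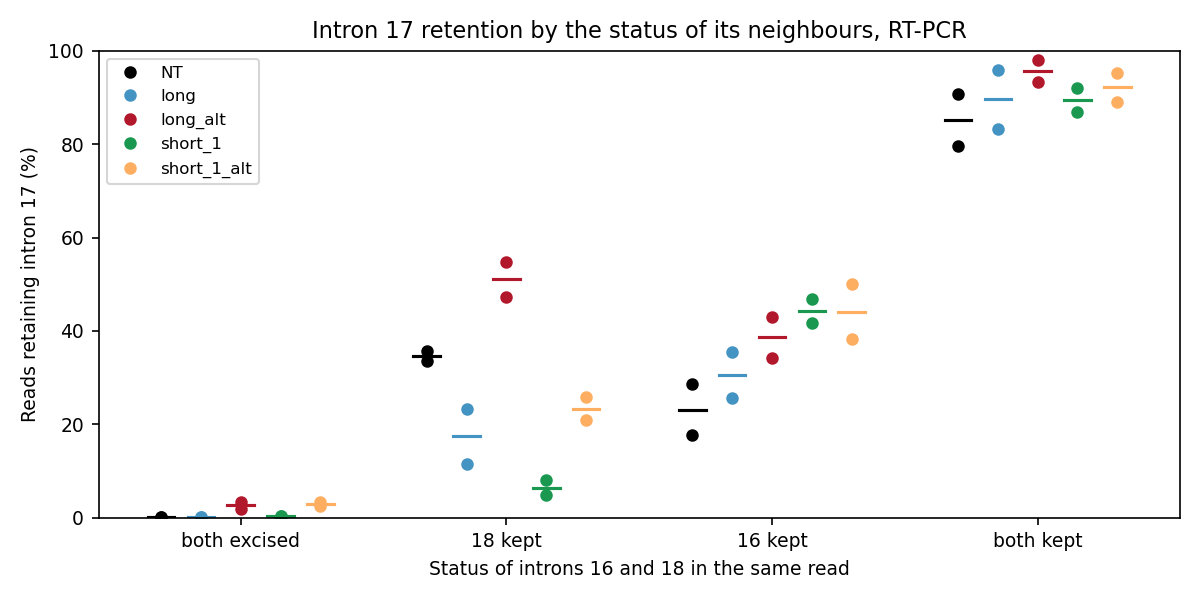
Percent of RT-PCR reads that retain intron 17 when introns 16 and 18 are both excised, when only intron 18 or only intron 16 is kept, and when both are kept; points are the 2 replicates of each construct and bars their means. Retention is at or below 3.40% with both neighbours excised and at least 79.6% with both kept, and where intron 16 is excised the alternative allele lies above the reference allele of the same architecture.

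The retained reads themselves had different companions in the 2 architectures. In short_1, 95.4% and 97.4% of reads that retained intron 17 also retained intron 18, and in short_1_alt 96.2% and 96.6% did. In long the share was 37.3% and 78.1%, in long_alt 36.1% and 49.3%, and in NT 81.9% and 85.8%. Reads in which intron 17 was kept with both neighbours excised made up 58.8% and 44.7% of the retained class in long_alt (729 and 867 reads). They were 40.0% and 11.8% for long (30 and 49 reads), 1.26% and 0.695% for short_1, and 158 and 142 reads for short_1_alt. Thus the most frequent retained combination in both long_alt libraries had intron 17 as its sole intron, with 722 and 855 reads. In short_1_alt it had introns 17 and 18, with 4388 and 3490 reads.

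Reads that retained both introns 16 and 17 numbered 23 and 224 for long, 82 and 479 for long_alt, 1697 and 4199 for short_1, and 2242 and 3780 for short_1_alt. Of the reads that retained intron 17, intron 16 was also retained in 30.7% and 54.0% for long against 6.61% and 24.7% for long_alt. It was also retained in 62.9% and 73.0% for short_1 against 32.4% and 49.7% for short_1_alt. In each architecture the 2 alleles did not overlap in this share, which was not tested. Its denominator holds the reads that kept intron 17 without intron 16, and these were more frequent with the alternative allele.

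DRS read native RNA without PCR, and asked how intron 17 fared when the region after intron 18 was changed. There was 1 library per minigene, so tests on reads compare libraries, not conditions, and have no replicate check. Intron 17 was retained in 22 of 986 reads for long (2.23%, Wilson interval 1.48% to 3.36%), in 62 of 1545 in mut 5′SS (4.01%, 3.14% to 5.11%) and in 23 of 259 in Δint19+20 (8.88%, 5.99% to 12.97%). In short_1 it was retained in 13 of 186 reads (6.99%, 4.13% to 11.6%). The long and short_1 values were in the order seen in RT-PCR.

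In the short + 72 nt minigene, intron 17 was retained in 254 of 1194 reads (21.3%, 19.0% to 23.7%). With the 5′SS in the added stretch mutated, it was retained in 72 of 206 reads (35.0%, 28.8% to 41.7%). These were the highest shares among the 6 DRS libraries, and their intervals overlapped neither each other nor those of the other 4.

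All 6 pairs compared passed the two-sided Fisher's exact test after Benjamini-Hochberg adjustment over the 6. By Fisher's exact test, retention was 4.76 points higher in short_1 than in long (interval of the difference 1.69 to 9.42, adjusted p = 0.00189), 6.65 points higher in Δint19+20 (3.55 to 10.8, adjusted p = 8.34e-06) and 1.78 points higher in mut 5′SS (0.360 to 3.11, adjusted p = 0.0164). The last difference was 1.18 points on reads whose expected introns were all determined, with an adjusted p of 0.0908.

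By the same exact test, and relative to short_1, retention was 14.3 points higher for short + 72 nt (9.17 to 18.02, adjusted p = 2.19e-06) and 28.0 points higher for short + 72 nt + mut 5′SS (20.3 to 35.3, adjusted p = 2.52e-11). Mutating the added 5′SS went with 13.7 points more retention (7.04 to 20.8, Fisher's exact test, adjusted p = 5.46e-05). Intron 18 did not follow the same order: it was retained in 71.0% of reads for short_1, 53.5% for short + 72 nt and 78.0% once its 5′SS was mutated. Therefore the short + 72 nt library had more intron 17 and less intron 18 retention than the short_1 library, with intervals at intron 18 of 50.6% to 56.3% and 64.1% to 77.1%. Intron 16 was retained in 5.95%, 17.2% and 22.3% of reads in these 3 libraries, 11.2 and 16.4 points above short_1 in the latter 2 (Fisher's exact test, adjusted p = 8.76e-05 and 1.80e-05). The difference of 5.16 points between those 2 missed the threshold (exact test, adjusted p = 0.0772). Relative to long, intron 16 retention was also higher, by 4.12 points in short_1, 3.96 points in Δint19+20 and 2.44 points in mut 5′SS (exact test, adjusted p = 0.00350, 0.00227 and 0.00121). Thus intron 16 retention was higher in all of the same 6 pairs and passed the threshold in 5, in tests added after the values were seen. Whether the 2 introns differ in this was not tested.

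Reads that retained every expected intron made up 1.61% for short_1, 3.94% for short + 72 nt and 4.37% once its 5′SS was mutated. Without them, intron 17 retention was 5.46%, 18.05% and 32.0%, and the 3 differences among these libraries were 12.6, 26.5 and 13.9 points, each past the threshold.

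**Figure D5:**
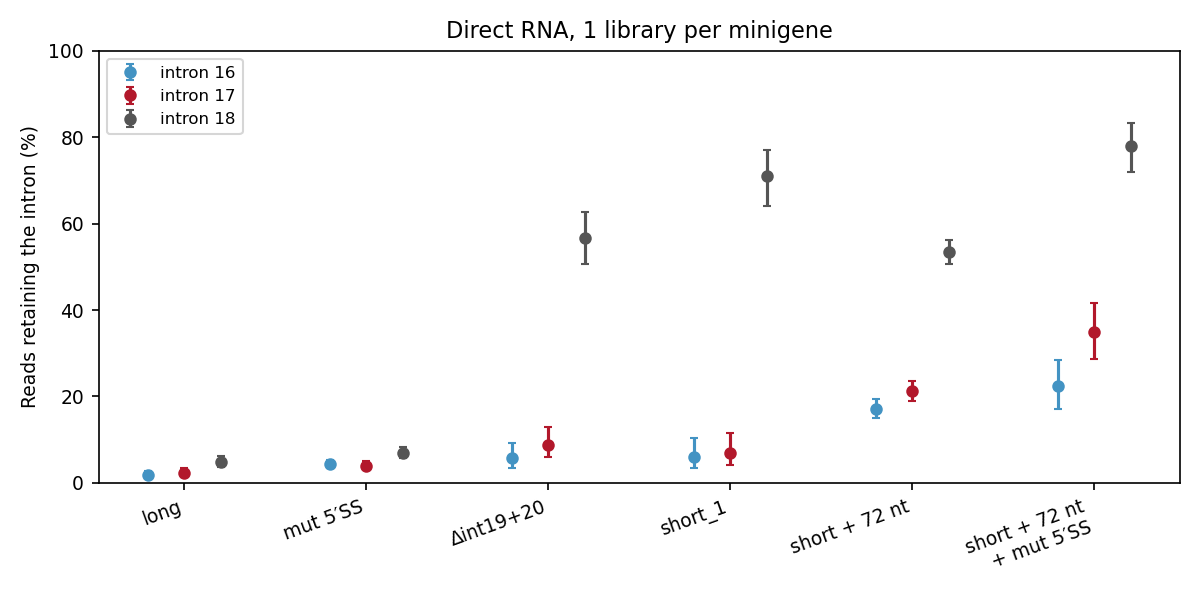
Percent of direct RNA reads that retain introns 16, 17 and 18 in each minigene (1 library each); bars are 95% Wilson intervals. Intron 17 (red) goes from 2.23% for long to 21.3% for short + 72 nt and to 35.0% once its 5′SS was mutated, while intron 18 (grey) is lower for short + 72 nt (53.5%) than in short_1 (71.0%).

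In DRS, every read that retained intron 17 also retained intron 18 in long (22 of 22), short_1 (13 of 13), Δint19+20 (23 of 23) and mut 5′SS (62 of 62). In short + 72 nt 246 of 254 did, and for short + 72 nt + mut 5′SS 66 of 72. Among reads that kept exactly 1 of introns 17 and 18, the kept one was intron 17 in 0 of 25 in long, 0 of 117 in short_1, 0 of 124 in Δint19+20 and 0 of 45 in mut 5′SS. These counts allow shares of up to 12%, 2.56%, 2.42% and 6.67%. In short + 72 nt it was 7 of 386 (1.81%) and for short + 72 nt + mut 5′SS 6 of 87 (6.90%, 3.20% to 14.2%). With reads also counted that lack intron 15, a choice made after seeing the data, the share for long was 2 of 34 (5.88%, 1.63% to 19.1%). The assays were not tested against each other.

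The neighbours of intron 17 divided the DRS reads as in RT-PCR. With introns 16 and 18 both kept, intron 17 was retained in 14 of 17 reads for long, 10 of 11 in short_1, 14 of 15 in Δint19+20, 58 of 63 in mut 5′SS, 197 of 204 for short + 72 nt and all 45 for short + 72 nt + mut 5′SS. With both excised, it was retained in 0 of 828 reads for long (up to 0.362%), 7 of 532 for short + 72 nt (1.32%) and 5 of 34 for short + 72 nt + mut 5′SS (14.7%, 6.45% to 30.1%). With intron 16 excised and intron 18 kept, the share was 1.69% for short_1 (2 of 118), 11.6% for short + 72 nt (49 of 421) and 20.6% for short + 72 nt + mut 5′SS (21 of 102). Hence the 2 minigenes with the added stretch had higher shares than short_1 also within this last class of reads, which was not tested.

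Whatever the rest of the read, exon 17 was skipped as a single exon in 6 of 986 reads for long (0.609%). The counts were 19 of 1194 for short + 72 nt (1.59%) and 19 of 206 for short + 72 nt + mut 5′SS (9.22%). In short_1 no read with either site of intron 17 unused was found, which allows up to 1.61% of 186 reads. Only the 5′SS of intron 17 was unused in 20 reads of short + 72 nt (1.68%) and in 19 of short + 72 nt + mut 5′SS. The difference of 7.55 points between the latter libraries passed the two-sided Fisher's exact test (interval 4.19 to 12.3, adjusted p = 1.93e-06 over 6 pairs), in a comparison chosen after the values were seen. Accordingly intron 17 was excised at both annotated sites in 115 of 206 reads of short + 72 nt + mut 5′SS (55.8%), against 77.1% for short + 72 nt and 93.0% for short_1.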

How the data were processed

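HEK293T cells, not transfected or carrying 1 of 8 *EIF4G2* minigenes, were profiled by nanopore sequencing of RT-PCR amplicons (20 cycles) or of RNA directly. The authors basecalled the reads, mapped them to GRCh38 by spliced alignment in minimap2, kept unique alignments and scored each intron as excised, retained, unused at its 5′, 3′ or both splice sites, or undetermined. They deposited raw counts of reads per combination of statuses, which range from 24309 to 49577 reads per RT-PCR and from 296 to 3362 per DRS library. The deposited tables are not filtered for reads across the whole amplicon. PCR can favour shorter products, and therefore excised over retained forms.

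From these counts, reads covering exactly the expected introns and determined at intron 17 were taken, and every status of intron 17 stayed in the denominator. In Δint19+20 the deleted introns read as excised. Comparisons with a neighbour used reads in which it was excised or retained. RT-PCR percentages were compared by two-sided exact permutation, with Benjamini-Hochberg adjustment over 23 comparisons. Alleles were exchanged within architectures, architectures 4 against 4 without regard to allele, single groups 2 against 2, and neighbour status by sign changes. DRS libraries were compared by Fisher's exact test over 6 pairs with Newcombe intervals, at a threshold of 0.05. Library labels give the replicates without saying how they were made, and per the methods they are biological. Python 3.11.15, SciPy 1.17.1, NumPy 2.4.6 and matplotlib 3.10.9 were used. The counts of reads used and of reads retaining intron 17 were recounted on 320000 reads drawn from the observed combinations of 16 libraries (largest difference 0). The recount followed the same rule, so it checks the code only, and the other shares were not checked this way.

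Introns 15 to 20 could be named, and combinations when among the 5 most frequent with intron 17 retained, or the 3 most frequent with an unused splice site, in a library. Skipping of a single exon was summed over all combinations that hold it, whatever the status of the other introns, so some of these reads also skip a further exon. The members, lists and tests were chosen with earlier results of these data known. Alternatives were other read sets, a minimum of 10 reads per combination, pooled replicates, log odds, a replicate block and leaving out each library. Exons and introns follow the GENCODE annotation of GRCh38. The sequence change of the alternative allele is not reported here.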

Additional observations from a re-analysis of the deposited data

Results flagged for a closer look

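The share of reads with the 5′SS of intron 17 unused, alone or with the 3′SS, moved in opposite directions with the alternative allele. In the long architecture it was 3.80 points higher in long_alt (9.22% and 9.71%) than in long (7.22% and 4.10%), in 4 of 4 pairings of libraries. In the short architecture the difference was -0.382 points, with 0.643% and 0.691% in short_1_alt and 1.15% and 0.951% in short_1, lower in 4 of 4 pairings. The difference between the architectures was not tested. Reads with both splice sites unused, which made up most of the long class, were 4.29 points more frequent with the alternative allele in the long and 0.0148 points in the short architecture, where the amplicon ends in exon 19. In DRS of long, both sites were unused in 14 of 986 reads, and long_alt has no DRS library.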

How the results depend on the processing

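The 23 comparisons of RT-PCR libraries and 6 of DRS libraries were recomputed under each alternative. None changed its side of the threshold or its direction with log odds (23 values), with replicates pooled (23), with reads that cover at least the expected introns (29) or with reads left out that had an unused splice site of intron 17 (25). The same held for reads counted with or without intron 15 (29), an alternative chosen after seeing the data. With reads that retain every expected intron left out, also chosen after seeing the data, 28 of 29 held, and the architecture difference given intron 16 retained was 19.3 points (exact permutation p = 0.0857). Leaving out combinations under 10 reads removed all reads with intron 17 retained from long, short_1 and Δint19+20 in DRS, so that both differences from long became 0 points. With undetermined reads left out, mut 5′SS differed from long by 1.18 points (Fisher's exact test, adjusted p = 0.0908). Replicate numbers are shared between groups. The deviations of libraries with the same number correlated at 0.684 to 0.898 (6 minigene pairs) and 0.578 to 0.909 (4 pairs with NT). The correlations ran over 7 quantities, among them the retention of introns 15 to 18, which often stay in the same reads. With only 2 numbers, they cannot show whether libraries were paired. By exact permutation within a replicate block, the architecture differences of 17.8 (retained), -7.00 (3′SS unused), -6.71 (5′SS unused), -41.2 (last of introns 17 and 18) and 25.1 points (given intron 16 retained) each had p = 0.0556, the smallest that the block allows, and the other 16 kept their side of the threshold.

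Leaving out 1 library at a time gave 13.4 to 21.9 points for the architecture difference in retention, -8.30 to -6.08 for the 3′SS, -7.86 to -5.99 for the 5′SS, -50.0 to -32.8 for introns 17 and 18, and 19.4 to 31.2 given intron 16 retained. Without any single long or long_alt library the first had an exact permutation p of 0.0571. Without any single short_1 or short_1_alt library the others had p = 0.0571 or, for introns 17 and 18, 0.0857 (exact permutation, 3 against 4). Given intron 16 excised, the range was 6.20 to 11.9, past the threshold without short_1 replicate 1 (11.9, exact permutation p = 0.0286). The architecture difference for introns 16 and 17 ran from -0.185 (without long replicate 2) to 9.83, and long minus NT from -1.15 to 0.0604 (without long replicate 1). The direction of every other comparison held. Depth limits the DRS libraries most: a status seen in no read can reach 1.61% of short_1 and 1.46% of short + 72 nt + mut 5′SS.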
